A study of Mus musculus with 9 samples.

Results

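Levels of 10 circadian clock genes were examined in mouse back skin with chemically induced dermatitis, with and without an oral herbal formulation. The genes were the activators Arntl, Clock and Npas2, the period genes Per1, Per2 and Per3, the nuclear receptor repressors Nr1d1 and Nr1d2, the clock repressor Ciart and the output regulator Dbp. They were chosen by name as core clock and output genes, and all 10 were found among the 55401 genes of the count table. All 10 also passed the filter on low counts, which left 20817 genes for testing.

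The 9 libraries came from male C57BL/6 mice, with 4 labelled Model and 5 labelled FJDHF. The mice were 6 to 8 weeks old when they entered the study, and by the paper they were killed on day 28. All mice of both groups were sensitized on the shaved back with 1% DNCB (a hapten that provokes contact dermatitis) on day 1, in a volume of 200 μL. The skin was then challenged with 100 μL of 0.5% DNCB from day 4 to day 21. FJDHF mice were fed Fangji Dihuang formulation daily after day 7 until day 28, and Model mice were given water. By the paper, the FJDHF skin that was sequenced came from its medium-dose group. A group without DNCB was not analysed here, so no value below compares inflamed with healthy skin. The labels give no hour at which skin was taken, and a difference in that hour between mice cannot be told apart from a difference in clock gene level. Library codes starting with MXL were read as Model and those starting with MR as FJDHF, since MX abbreviates the Chinese for model and each kind has as many columns as its group has mice. Every direction between groups rests on that reading, and codes such as MR3_4 may stand for pooled mice, which could not be checked.

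The clock is a feedback loop of transcription that runs in nearly every cell, keratinocytes and fibroblasts of the skin included. The product of Arntl, BMAL1, pairs with CLOCK or with its relative NPAS2 and binds E-boxes, through which it drives the period genes, Nr1d1, Nr1d2, Dbp and Ciart. The PER proteins and CIART then inhibit the activators, while the NR1D1 and NR1D2 receptors repress Arntl through a retinoid-related receptor element. DBP acts on D-boxes of further genes. Arntl and these E-box-driven genes therefore peak at roughly opposite times of day in a rhythmic tissue.

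In the positions of the deposited table (GRCm38, the build also called mm10), Arntl lies at chr7:113207465-113314126 on the plus strand, Clock at chr5:76209868-76304792 on the minus strand and Npas2 at chr1:39193731-39363236 on the plus strand. Per1 lies at chr11:69095217-69109960 on the plus strand, Per2 at chr1:91415982-91459324 on the minus strand and Per3 at chr4:151003652-151044665 on the minus strand. Nr1d1 (chr11:98767932-98775333), Nr1d2 (chr14:18204054-18239127) and Ciart (chr3:95878503-95882231) are all on the minus strand, and Dbp (chr7:45705088-45710203) is on the plus strand. By GENCODE M21, exons of Nr1d1 overlap Thra on the opposite strand, exons of Dbp overlap Sphk2 and exons of Arntl overlap Gm45355. Whether strand was used in counting is not given in the sources used here, so reads of these genes and their antisense partners may not be separable. Thra measured 21.2 to 70.2 CPM (counts scaled to the size of each library) across the libraries and Sphk2 3.21 to 25.7 CPM.

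Promoter windows from RefSeq (GRCm38.p6; 250 bases before to 50 after an annotated start) were found for 9 of the 10 genes, 13 windows in all. Both strands were searched for the E-box CACGTG, its variant CACGTT, the D-boxes TTATGTAA and TTACGTAA, and the retinoid-related receptor element TAGGTCA. The E-box was present in 7.15% of the 32851 windows of the table, the variant in 4.68%, either D-box in 1.06% and the receptor element in 2.61%. Ciart held 3 E-boxes, with first bases at −116, −58 and −44 from the start, and Per1 held 1 at −166 in the first of its windows. Per3 held 2 D-boxes, at −205 and −158, and Nr1d1 held the E-box variant, read as AACGTG, at −28. The 250 bases before each of these starts are printed 5′ to 3′ to show where the loop's elements lie in the genes described next, with the matched letters in capitals.
Ciart, chr3:95882229-95882478, minus strand: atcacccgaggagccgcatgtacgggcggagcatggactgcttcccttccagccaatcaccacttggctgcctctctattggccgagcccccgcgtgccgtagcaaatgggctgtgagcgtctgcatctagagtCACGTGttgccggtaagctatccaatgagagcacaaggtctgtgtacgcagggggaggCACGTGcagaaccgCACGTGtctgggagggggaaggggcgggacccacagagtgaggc
Per1, chr11:69098699-69098948, plus strand: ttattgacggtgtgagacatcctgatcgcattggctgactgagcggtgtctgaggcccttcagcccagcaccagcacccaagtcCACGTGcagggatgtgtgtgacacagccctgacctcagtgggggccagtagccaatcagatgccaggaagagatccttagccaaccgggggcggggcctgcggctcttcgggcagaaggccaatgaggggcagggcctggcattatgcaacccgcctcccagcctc
Per3, chr4:151044666-151044915, minus strand: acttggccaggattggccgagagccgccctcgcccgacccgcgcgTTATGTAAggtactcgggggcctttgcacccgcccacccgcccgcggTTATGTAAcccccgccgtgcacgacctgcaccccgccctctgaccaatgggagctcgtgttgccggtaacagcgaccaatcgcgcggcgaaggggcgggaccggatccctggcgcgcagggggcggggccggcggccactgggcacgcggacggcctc
Nr1d1, chr11:98775378-98775627, minus strand: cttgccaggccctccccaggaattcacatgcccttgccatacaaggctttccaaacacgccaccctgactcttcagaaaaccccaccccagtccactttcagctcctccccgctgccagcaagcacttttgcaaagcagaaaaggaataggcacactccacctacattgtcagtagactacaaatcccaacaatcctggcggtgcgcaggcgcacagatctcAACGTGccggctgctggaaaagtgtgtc

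The second Arntl window held 1 receptor element after its start, at chr7:113207541-113207547, which is the element through which the NR1D receptors act. Windows of Clock, Npas2, Nr1d2 and Dbp held none of the letters searched for. These matches describe letters and not bound sites, and elements outside the windows were not searched.

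Total counts were even, from 74648669 to 79474215 per library, and 3 counts corresponded to 0.0377 to 0.0402 CPM, a floor that covers counting error only. The lowest clock gene value, Ciart in the Model library MXL12, rested on 47 counts, so counting error was small beside the spread between libraries. The tissue carried skin markers in every library. The summed level of 6 keratinocyte markers was 3116 to 12184 CPM in Model and 8261 to 14945 CPM in FJDHF, that of 5 fibroblast markers 23519 to 45347 and 17564 to 30621 CPM, and none of these markers was at 0. Skeletal muscle RNA varied more: 8 muscle markers summed to between 552 CPM in MXL12 and 15849 CPM in MXL_3 among Model libraries, and to 1853 to 10053 CPM in FJDHF. Libraries also differed in a GC trend, the slope on gene GC content of log2 levels taken as deviations from each gene's mean over the libraries. This slope is relative to the average library and was fitted on genes with a mean of at least 1 CPM. The trend was lowest in MR5 and MXL12, at −0.55 and −0.54 log2 per 10 points of GC. In the other libraries it lay between −0.24 and 0.52. In bulk skin, fewer cells of a type and less RNA per cell cannot be told apart.

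The comparison of FJDHF with Model asked whether the formulation moved the clock genes of DNCB-treated skin. None of the 10 genes differed at an adjusted p under 0.05 and 2-fold by edgeR's quasi-likelihood test, against 0% of all genes tested. By edgeR every one of the 10 genes had an adjusted p of 1. At an unadjusted p under 0.05 the count was also 0 of 10, against 326 genes or 1.57% of all genes. DESeq2's Wald test called none of the 10 genes at an unadjusted p under 0.05, against 460 genes or 2.22% of all genes. At an adjusted p under 0.05 it called 2 genes of all and 0 of the 10. For all 10 the ranges of the groups overlapped, against 0.514% of all genes whose ranges did not. Of the 10 genes, 4 were higher in FJDHF by the fitted fold change, and their median log2 fold change was −0.078 beside −0.032 over all genes. Without MR5 and MXL12, the libraries lowest on the GC trend, the count at an unadjusted p under 0.05 was again 0 of 10. Of all genes, 378 or 1.8% passed there. Every fold change of the 10 genes kept its sign. The log2 fold changes were then 0.15 for Arntl, 0.058 for Clock, −0.39 for Npas2, −0.94 for Per1, 0.67 for Per2, −0.20 for Per3, −0.31 for Dbp, −0.23 for Nr1d1, −0.17 for Nr1d2 and 0.024 for Ciart. The exact permutation p values given beside the fold changes below test another quantity. It is the difference between the groups in mean log2(CPM + 0.5). That difference was −0.447 for Per1, 0.421 for Ciart and 0.0624 for Dbp, the last opposite in sign to the fitted fold change. With 4 and 5 libraries the exact permutation test could reach a p of 0.00794, and the smallest value it gave among these genes was 0.111, for Per2.

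**Figure D1:**
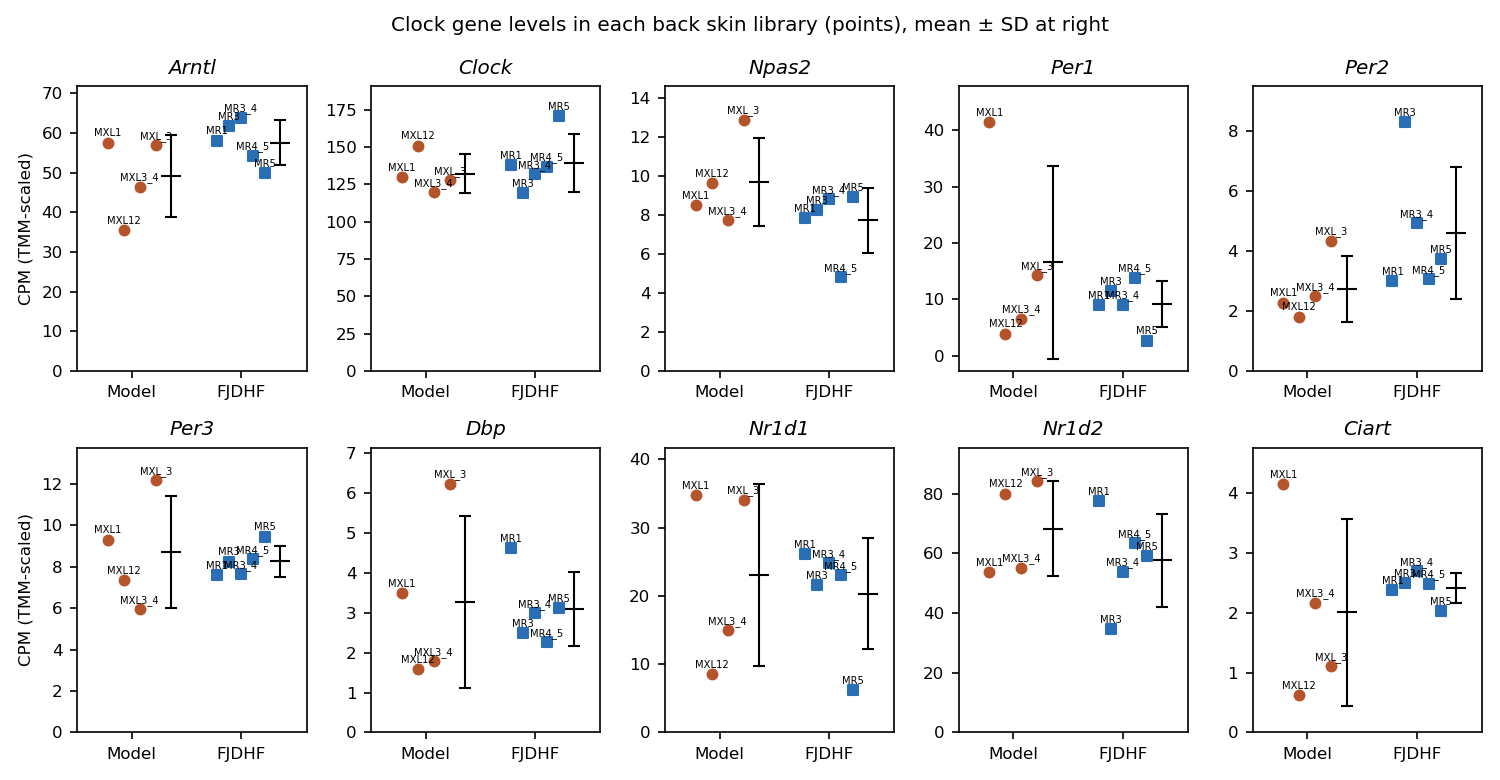
Level of each clock gene in CPM (vertical axes, linear) in the 4 Model libraries (circles) and the 5 FJDHF libraries (squares), with the mean ± SD to the right of each group. The groups overlap in all 10 panels, the Model library MXL1 stands at 41.4 CPM for Per1, and MR5 is the lowest FJDHF library for Per1 and Nr1d1.

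Among the activators, Arntl measured 57.6, 35.5, 46.5 and 56.9 CPM in the Model libraries MXL1, MXL12, MXL3_4 and MXL_3. In the FJDHF libraries MR1, MR3, MR3_4, MR4_5 and MR5 it measured 58.1, 61.8, 63.9, 54.3 and 49.8 CPM. Only MXL12 and MXL3_4 fell below the FJDHF range, and the other Model libraries lay inside it. The fitted log2 fold change was 0.23 ± 0.17 (SE; exact permutation p = 0.143, two-sided), and its 95% interval ran from 0.897-fold to 1.53-fold. Clock, which encodes BMAL1's usual partner, was the least variable of the 10, with a highest library only 1.45 times the lowest. It measured 132 ± 13.4 CPM in Model (SD, n = 4) and 139 ± 19.5 CPM in FJDHF (SD, n = 5), a log2 fold change of 0.07 ± 0.15 (SE; exact permutation p = 0.571). Npas2, the alternative partner, measured 8.53, 9.65, 7.73 and 12.9 CPM in Model and 7.86, 8.25, 8.82, 4.8 and 8.91 CPM in FJDHF. MXL_3 was the highest library and MR4_5 the lowest, and the 7 others lay between 7.73 and 9.65 CPM. Its log2 fold change was −0.33 ± 0.25 (exact permutation p = 0.238).

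The period genes, whose products inhibit the activators, differed in how far they varied: the highest library was 15.8 times the lowest for Per1, 4.57 times for Per2 and 2.06 times for Per3. Per1 measured 41.4, 3.88, 6.55 and 14.3 CPM in Model and 8.95, 11.4, 9.03, 13.8 and 2.63 CPM in FJDHF. MXL1 stood far above the others, and MR5 was the lowest. The log2 fold change of −0.85 ± 0.66 (exact permutation p = 0.571) turned to 0.15 when MXL1 was left out, so its direction rested on that library. Per2 measured 2.27, 1.81, 2.49 and 4.34 CPM in Model and 3, 8.29, 4.91, 3.06 and 3.72 CPM in FJDHF. All FJDHF libraries were above 3 of the 4 Model libraries, and MXL_3 lay within the FJDHF range. Its log2 fold change of 0.75 ± 0.39 was the one nearest to the threshold (adjusted p = 1 by edgeR; exact permutation p = 0.111), with a 95% interval from 0.923-fold to 3.07-fold. Without MXL_3, the Model library with the most muscle RNA, it was 1.07 and passed an unadjusted p under 0.05 by edgeR, but not an adjusted one, and without MR3, the highest library, it fell to 0.415 and did not pass. Per3 measured 9.31, 7.37, 5.94 and 12.2 CPM in Model, on both sides of the FJDHF range of 7.6 to 9.46 CPM. Its log2 fold change was −0.075 ± 0.24 (exact permutation p = 0.897), and 0.13 without MXL_3.

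The NR1D repressors link the output side of the loop back to Arntl. Nr1d1 measured 34.7, 8.55, 15 and 34.1 CPM in Model and 26.1, 21.6, 24.8, 23 and 6.18 CPM in FJDHF. MXL1 and MXL_3 were the highest and MR5 and MXL12 the lowest, so both ends of the range held a Model library. The log2 fold change was −0.18 ± 0.48 (exact permutation p = 0.825), and it took the other sign, at 0.047, 0.082 or 0.065, when MR5, MXL1 or MXL_3 was left out. Its paralog Nr1d2 measured 53.8, 80, 55.2 and 84.2 CPM in Model and 77.5, 34.7, 53.9, 63.4 and 59.2 CPM in FJDHF. MR3 was the lowest library, and both groups held libraries near 54 and near 80 CPM. The log2 fold change was −0.24 ± 0.24 (exact permutation p = 0.397). The 2 paralogs did not order the libraries alike: MXL12 was second lowest for Nr1d1 and second highest for Nr1d2, and r between them over the 9 libraries was −0.049.

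Dbp, a transcription factor often read as the output of the loop, measured 3.49, 1.59, 1.78 and 6.24 CPM in Model and 4.62, 2.49, 2.99, 2.27 and 3.12 CPM in FJDHF. The Model libraries held both the lowest and the highest values, and the FJDHF libraries lay between them. Its log2 fold change of −0.08 ± 0.43 (exact permutation p = 0.873) had a 95% interval from 0.491-fold to 1.82-fold and no stable sign across settings. Ciart, which encodes a repressor of the CLOCK and BMAL1 pair, measured 4.15, 0.622, 2.17 and 1.11 CPM in Model. The FJDHF libraries were far closer together, between 2.03 and 2.7 CPM, and lay inside the Model range. The log2 fold change was 0.27 ± 0.48 (exact permutation p = 0.31), with a 95% interval from 0.579-fold to 2.5-fold. It was 0.90 without MXL1, the highest library, and −0.034 without MXL12, the lowest, and passed an unadjusted p under 0.05 in neither case.

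**Figure D2:**
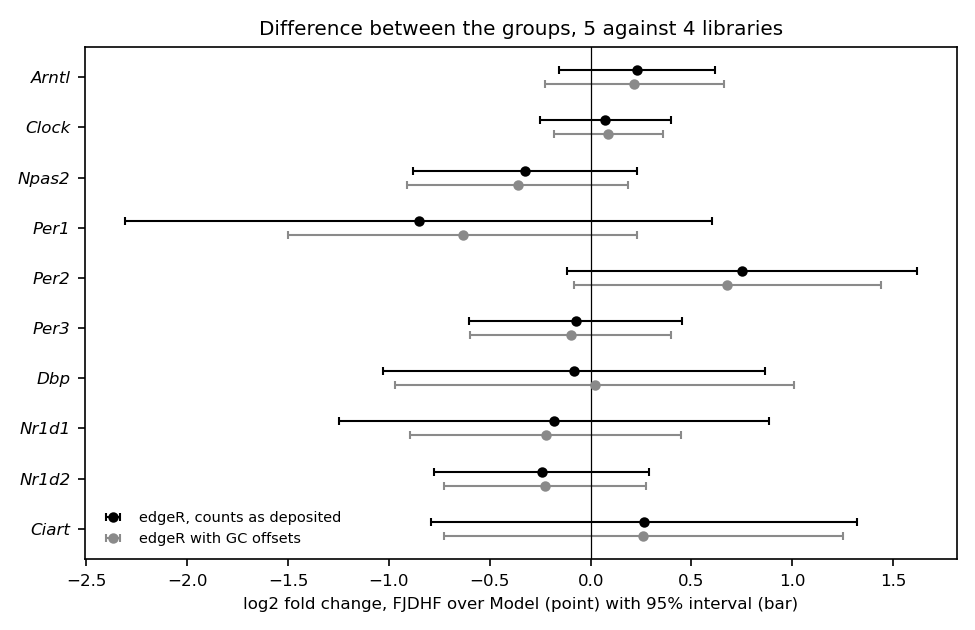
Log2 fold change of each clock gene, FJDHF over Model (horizontal axis), with its 95% interval, by edgeR on the deposited counts (black) and with each library's GC trend added as an offset (grey). All 20 intervals contain 0, and those of Per1 and Nr1d1 are narrower with the GC offsets.

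A change of 2-fold in either direction lay outside the interval of Arntl, Clock, Npas2, Per3 and Nr1d2, whose intervals together ran from 0.542-fold to 1.53-fold. A 2-fold decrease lay inside the interval of Per1, whose lower end was 0.202-fold, and of Dbp and Nr1d1. A 2-fold increase lay inside that of Per2 and Ciart. For each of these genes, a change of that size in the named direction could not be told from none, and the other direction lay outside. With the GC trend of each library as an offset, the log2 interval of Per1 shrank from −2.31 to 0.60 to −1.5 to 0.23. That of Nr1d1 shrank from −1.25 to 0.89 to −0.89 to 0.45, and then held no 2-fold change in either direction. The interval of Dbp was then −0.97 to 1.01, which held a 2-fold increase but no 2-fold decrease.

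Other genes of the pathway were read from lists. None of 18 further clock regulators passed an unadjusted p under 0.05, where 1.57% of all genes did. Of these regulators, 12 had a fold change above 0, and their median log2 fold change was 0.080, beside −0.032 over all genes. The smallest p values were those of Fbxl21 (log2 fold change −0.53 ± 0.32), a ubiquitin ligase subunit that acts on the cryptochromes, and Rora (0.22 ± 0.16), the receptor that activates Arntl at the element where the NR1D receptors repress it. Cry1, which encodes the main partner of the PER proteins, measured 19.7 ± 3.97 CPM in Model (SD, n = 4) and 23.1 ± 5.48 CPM in FJDHF (SD, n = 5), and its log2 fold change was 0.23 ± 0.22. None of 7 clock outputs passed, against the same 1.57% of all genes, so a count of 0 does not set such short lists apart. Their smallest p values were for Noct, which encodes nocturnin (0.33 ± 0.20), and Wee1, which encodes a cell cycle kinase (−0.29 ± 0.22).

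Genes of 2 systemic cues that reset peripheral clocks were also read. None of 7 glucocorticoid targets passed an unadjusted p under 0.05, against 1.57% of all genes. Klf9 was at a log2 fold change of −0.39 ± 0.23 and Dusp1 at 0.91 ± 0.66. Of 8 temperature-responsive genes, 2 were higher in FJDHF at an unadjusted p under 0.05 and none lower, where 1.57% of all genes passed in either direction, and neither passed adjustment (adjusted p = 1 by edgeR). These were the heat shock chaperone genes Hspa1a (0.71 ± 0.26) and Hspa1b (0.65 ± 0.26), which are near-identical copies and may share reads. Hspa1a was the 1 gene of that list whose groups did not overlap, at 3.33 to 7.58 CPM in Model and 7.67 to 10 CPM in FJDHF, against 0.514% of all genes. The nearest libraries of the groups were thus only 7.58 and 7.67 CPM. Cirbp, the cold-inducible RNA-binding protein gene that also binds clock transcripts, measured 16.6 ± 10.6 CPM in Model (SD, n = 4) and 13 ± 2.91 CPM in FJDHF (SD, n = 5), a log2 fold change of −0.35 ± 0.36. Among the skin cell markers, 2 of 6 keratinocyte genes and 1 of 5 fibroblast genes passed an unadjusted p under 0.05, against 1.57% of all genes, and none passed after adjustment (adjusted p = 1 by edgeR). The keratinocyte differentiation genes Krt1 (1.48 ± 0.41) and Krt10 (1.23 ± 0.39) were higher in FJDHF, and the collagen gene Col3a1 (−0.57 ± 0.25) was lower. Their part in the clock gene values was not tested.

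Because no member separated the groups, the levels were next read across all 9 libraries, per length, in FPKM (fragments scaled by transcript length and library size). In each of the 9 libraries the 4 highest genes per length were Arntl, Clock, Nr1d1 and Nr1d2, in varying order. By mean FPKM the order was Nr1d2, Clock, Arntl, Nr1d1, Per1, Npas2, Dbp, Ciart, Per3 and Per2. The mean ± SD over the libraries was 10.9 ± 2.62 FPKM for Nr1d2, 9.44 ± 1.25 for Clock, 6.8 ± 1.12 for Arntl and 6.64 ± 3.09 for Nr1d1. It was 2.11 ± 2.01 for Per1, 1.7 ± 0.39 for Npas2, 0.998 ± 0.44 for Dbp, 0.936 ± 0.43 for Ciart, 0.835 ± 0.17 for Per3 and 0.611 ± 0.33 for Per2. Neighbours in this order were separated in every library at 3 places only: Clock exceeded Arntl in 9 of 9, Nr1d1 exceeded Per1 in 9 of 9, and Npas2 exceeded Dbp in 9 of 9. Nr1d2 exceeded Clock in 7 of 9, Arntl exceeded Nr1d1 in 5 of 9, and Per1 exceeded Npas2 in only 3 of 9, its mean being raised by MXL1.

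**Figure D3:**
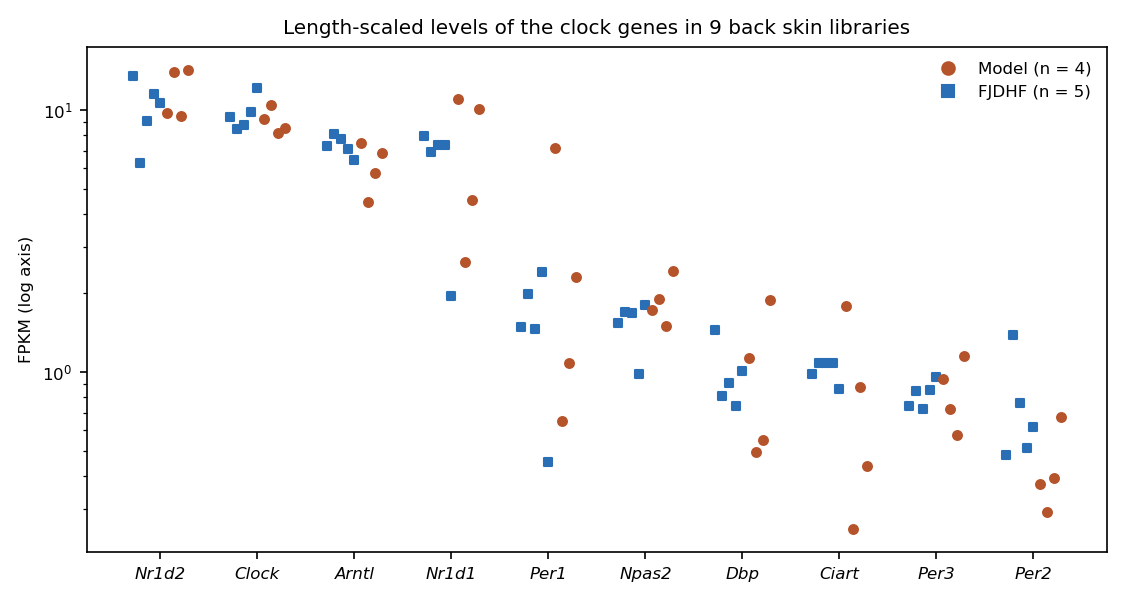
FPKM of each clock gene (vertical axis, logarithmic) in the 4 Model libraries (circles) and the 5 FJDHF libraries (squares), ordered by mean over all 9. Nr1d2, Clock and Arntl lie above 4 FPKM in every library, Npas2, Dbp, Ciart, Per3 and Per2 below 3 FPKM, and Per1, Ciart and Nr1d1 spread the most.

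Ratios of Arntl to most E-box-driven genes had the same direction in every library of both groups. Arntl exceeded Dbp in 9 of 9 libraries, from 3.64 times in MXL_3 to 10.4 times in MXL3_4, with a median of 8.52 times. It exceeded Per2 by 5.81 to 19.9 times, Per3 by 5.96 to 10.7 times and Ciart by 4.2 to 17.7 times, again in all 9. Against Per1 the ratio ran from 1.04 in MXL1 to 14.2 in MR5. Nr1d1 was different: its FPKM was higher than that of Arntl in 4 libraries and lower in 5, with ratios of Arntl to Nr1d1 between 0.678 and 3.29. Nr1d2 exceeded Arntl in 8 of 9 libraries, MR3 being the exception at a ratio of 1.28. Between the partners of BMAL1, Clock exceeded Npas2 by 3.48 to 10 times. Without a time series these levels cannot be assigned an hour.

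A clock index was then formed for each library as the mean log2(CPM + 0.5) of the 7 E-box-driven genes minus that of the 3 activators, so that it rises toward the output side. Only its differences between libraries are read, since CPM does not correct for gene length. It was −1.75, −2.82, −2.39 and −1.99 in the Model libraries MXL1, MXL12, MXL3_4 and MXL_3, and −2.07, −2.1, −2.19, −1.89 and −2.74 in the FJDHF libraries MR1, MR3, MR3_4, MR4_5 and MR5. The groups overlapped, at −2.24 ± 0.47 (SD, n = 4) and −2.2 ± 0.32 (SD, n = 5), and the difference of 0.037 was small beside the pooled SD of 0.392. Its direction turned with the setting: it was −0.065 on log2(FPKM + 1), −0.021 with the GC trend subtracted, −0.022 without MR5 and MXL12, −0.157 without MXL12 and 0.2 without MXL1. The lowest values were those of MXL12 and MR5. With the GC trend subtracted, these 2 libraries stood at −2.35 and −2.27, inside the range of the others, and the whole range narrowed to −2.45 to −1.89.

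Each gene was also set against its own median over the libraries, to read whether activators and E-box-driven genes moved oppositely within a library. In MXL3_4 all 7 E-box-driven genes were below their median over the libraries, and 0 of the 3 activators were above theirs. In MXL_3 6 of the 7 were above their median while 1 of 3 activators was above. MXL12 was the library nearest to an opposed arrangement, with 6 of 7 E-box-driven genes below and 2 of 3 activators above, the exception among the activators being Arntl. By these counts the FJDHF libraries showed no such tilt, with 1 to 3 of the 7 genes below the median in each. The clock index of MR5, at −2.74, was nevertheless close to that of MXL12, at −2.82. In MR5, 2 of 3 activators were above their median.

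Over the 9 libraries r with Arntl was above 0 for 6 of the 7 E-box-driven genes and below 0 for Nr1d2 (r = −0.426, exact permutation p = 0.252, adjusted p = 0.475, and rho = −0.483, exact permutation p = 0.194, adjusted p = 0.412). The correlation of Arntl with Dbp, the pair most often used to read opposite phases, was r = 0.597 (exact permutation p = 0.0906, adjusted p = 0.267) and rho = 0.5 (exact permutation p = 0.178, adjusted p = 0.392). Adjusted p-values cover all 20816 other genes tested against the same reference. The relation rested on MXL12 and MXL3_4, the 2 libraries farthest in Arntl, and r was −0.024 without them. It was −0.318 after subtraction of the GC trend and 0.0054 on residuals from the muscle score (the mean log2 level of the muscle markers). Arntl thus had no stable relation to Dbp in either direction.

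Among the other E-box-driven genes, r with Arntl was 0.711 for Nr1d1 (exact permutation p = 0.0326, adjusted p = 0.161), 0.709 for Ciart (exact permutation p = 0.0415, adjusted p = 0.181) and 0.685 for Per2 (exact permutation p = 0.0459, adjusted p = 0.19). Spearman's rho was 0.583 for Nr1d1 (exact permutation p = 0.108, adjusted p = 0.292), 0.733 for Ciart (exact permutation p = 0.0311, adjusted p = 0.188) and 0.65 for Per2 (exact permutation p = 0.0666, adjusted p = 0.232). Without MXL12 and MXL3_4, r was 0.652, 0.245 and 0.461 for the same genes. For Per1 it was 0.568 with all libraries and 0.411 without these, for Per3 0.33 and −0.392, and for Nr1d2 −0.426 and −0.375. These were 3 of 9 clock genes at an unadjusted p under 0.05, where 25.3% of all genes passed, so the share was near the background. None passed adjustment, as did 0% of all genes. With the GC trend subtracted 0 of 9 clock genes passed, against 20.8% of all genes. Clock itself turned from r = −0.446 to 0.578 with that step. Against Dbp, 1 of 9 clock genes passed at an unadjusted p under 0.05, against 15.4% of all genes. This was Per3, a gene driven through both D-boxes and E-boxes, at r = 0.74 (exact permutation p = 0.0234, adjusted p = 0.272) and rho = 0.65 (exact permutation p = 0.0666, adjusted p = 0.415). Its r fell to 0.475 without MXL_3 and MXL12, and with the GC trend subtracted 0 of 9 passed, against 11.1% of all genes.

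**Figure D4:**
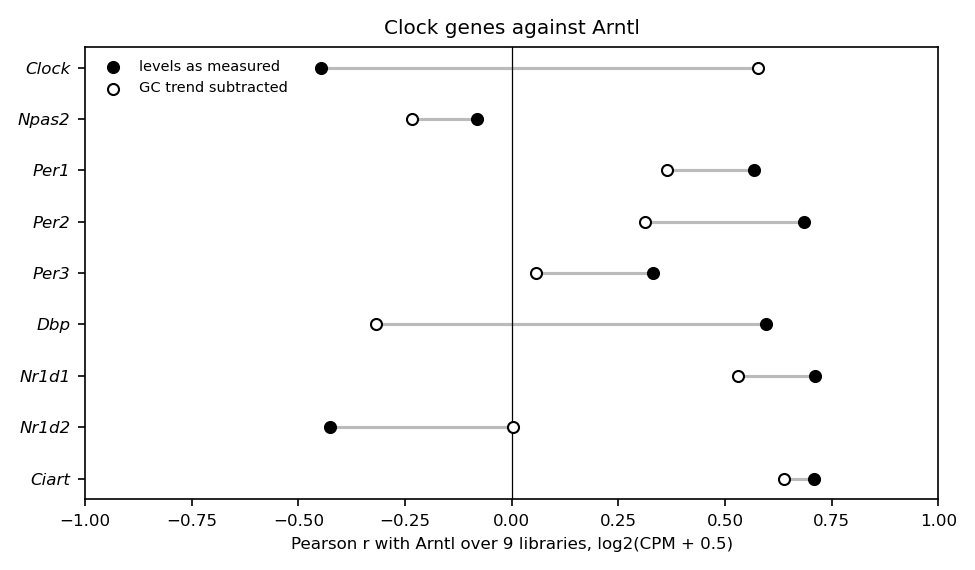
Pearson r of 9 clock genes with Arntl over the 9 libraries (horizontal axis), from log2(CPM + 0.5) as measured (filled) and with the GC trend of each library subtracted (open). Dbp moves from 0.597 to −0.318 and Clock from −0.446 to 0.578, and Ciart stays above 0.6.

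Genes with a mean of at least 1 CPM were then ranked by r with Arntl across the 9 libraries. The other 9 clock genes were left out of this ranking. Their own r ran from −0.446 for Clock to 0.711 for Nr1d1. Among the ranked genes, the highest r values were those of Herpud1 (0.962), a gene of the endoplasmic reticulum stress response, Pnpla3 (0.945), Elp6 (0.943), Nfya (0.939) and A930004D18Rik (0.938). The lowest were those of Osgin2 (−0.985), Lysmd3 (−0.969), Slc4a7 (−0.962), Cmas (−0.961) and Sgms2 (−0.956). Adjusted p-values of these 10 genes lay between 0.0669 and 0.082. With the GC trend subtracted, Elp6 alone of the 10 remained among the 5 highest or 5 lowest, at r = 0.974.

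The GC trend of the libraries moved with several clock genes. The transcripts of Dbp (61.6% GC), Per1 (59.4%) and Nr1d1 (56.8%) are GC-rich and those of Clock (40.9%) and Nr1d2 (41.8%) are GC-poor, beside a median of 49.2% over the genes tested. Per1 followed the trend with r = 0.887 (exact permutation p = 0.00118, adjusted p = 0.0123), and rho was 0.733 (exact permutation p = 0.0311, adjusted p = 0.123). Nr1d1 followed it with r = 0.884 (exact permutation p = 0.00196, adjusted p = 0.0168) and rho = 0.783 (exact permutation p = 0.0172, adjusted p = 0.0863). For Arntl, whose GC content of 48.2% is near the median, r was 0.792 (exact permutation p = 0.00646, adjusted p = 0.036) and rho 0.8 (exact permutation p = 0.0138, adjusted p = 0.0758). Without MR5 and MXL12, the libraries farthest out on the trend, r was 0.735, 0.629 and 0.69. Within groups, after subtraction of the group means, r was 0.936 for Per1, 0.899 for Nr1d1 and 0.863 for Arntl. These 3 of 10 clock genes passed at an adjusted p under 0.05, against 20.9% of all genes, so following the trend was not particular to the clock genes. Dbp, the GC-richest of them, did not pass (r = 0.421, rho = 0.45, adjusted exact permutation p = 0.446 and 0.422). The trend was itself computed from the levels of genes with a mean of at least 1 CPM, the clock genes included. What produced it was not tested.

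**Figure D5:**
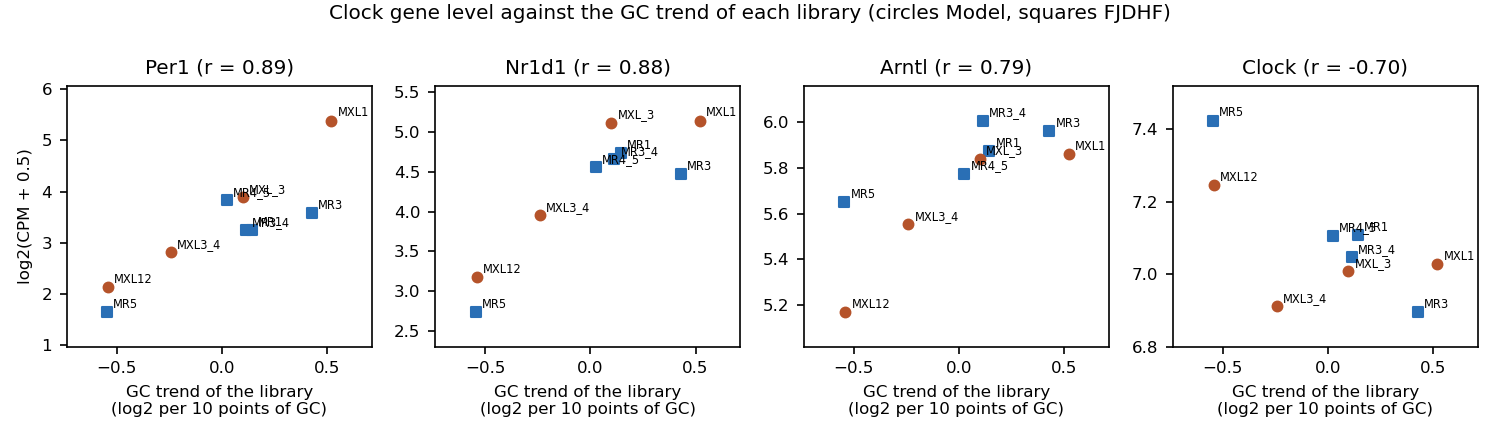
Level of Per1, Nr1d1, Arntl and Clock in log2(CPM + 0.5) (vertical axes) against the GC trend of each library (horizontal axes, log2 per 10 points of GC), with Model libraries as circles and FJDHF libraries as squares. MR5 and MXL12 lie lowest on the trend and lowest for Per1 and Nr1d1, and Clock is highest in those libraries.

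Per1 and Nr1d1 also followed each other, with r = 0.887 over the 9 libraries as measured and 0.691 with the GC trend subtracted, and with 0.74 and 0.473 without MR5 and MXL12. Nr1d1 and Nr1d2 had r = −0.049 as measured and 0.654 with the trend subtracted, and 0.396 and 0.914 without those libraries. Per1 and Per2 had r = 0.051 as measured and −0.574 with the trend subtracted, and −0.262 and −0.649 without them. These pairs were among 45 that could be formed from the 10 genes, and they are given as a description without a test.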

How the data were processed

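RNA of back skin was sequenced as paired ends from strand-marked poly(A) libraries. The submitters' processing notes name HISAT, StringTie, DESeq2 and mm10, with no versions or settings. The authors deposited raw read counts per gene and, in a second table, FPKM values, which scale by transcript length and library size. Its 9 repeated count columns were identical to the counts and were not used. Nothing in the labels pairs columns with single mice, so p-values measure the spread between libraries, which may be technical.

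Counts were tested with edgeR 4.0.16 (filterByExpr, TMM, quasi-likelihood test, R 4.3.3) and adjusted by the Benjamini-Hochberg method over 20817 genes. Alternatives used DESeq2 1.42.0 and limma 3.58.1. CPM values were scaled by TMM, and log2 values used a pseudocount of 0.5. Fold changes are given with standard errors, and intervals use the t distribution of the fit. Correlations had exact p-values over all orders of the libraries. The GC trend quoted for each library was the slope of a linear fit. What was subtracted or used as an offset was instead interpolated from the median deviation in 20 bins of GC content. Both were fitted on genes with a mean of at least 1 CPM, and 20787 tested genes had a GC value. The use of the GC trend was chosen after seeing the data. The edgeR test and the correlation test were tried on simulated data, and the other steps were not.

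The genes and lists were chosen with earlier results of these data known. Named genes were the 10 clock genes, in each other list those at an unadjusted p under 0.05 or else the 2 with the smallest p (for marker lists with none, the count only), and the 5 genes highest and 5 lowest in r with Arntl. Cry1, Cirbp, Thra and Sphk2 were added after their values were seen. The lists for adipocyte, endothelial, leukocyte, neutrophil and hair follicle markers had 0 genes at an unadjusted p under 0.05, and 1 hair follicle marker was not matched. Library pairs differed by more than sampling noise, with chi-square per degree of freedom from 137.2 to 643.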

Additional observations from a re-analysis of the deposited data

Results flagged for a closer look

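Within the 5 FJDHF libraries, 3 values stood apart from the rest by Dixon's ratio on log2(CPM + 0.5), the gap to the nearest library over the range, against a critical value of 0.71. They were Npas2 in MR4_5 (ratio 0.795; 4.8 CPM against 7.86 to 8.91 in the others), Per1 in MR5 (0.729; 2.63 CPM against 8.95 to 13.8) and Nr1d1 in MR5 (0.865; 6.18 CPM against 21.6 to 26.1). On linear CPM the ratios were 0.745, 0.568 and 0.772, so Per1 did not stand apart on that scale, which was added after seeing the data. Chance flags about 1 in 20 groups, or 1.3 of the 26 comparisons made. MR5 had the lowest GC trend of the 9 libraries, and its part in these values was not tested.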

How the results depend on the processing

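The number of clock genes at an unadjusted p under 0.05 was 0 under every other test, scaling, filter and covariate. It was also 0 with the GC offsets, without MR5 and MXL12 together, and in the replicate block fit on fewer libraries described below. With 1 library left out it was 0 to 1, the 1 being Per2 without MXL_3. Fold changes kept their direction and side of the threshold in 87 of 90 values under other settings and in 80 of 90 with 1 library left out. The exceptions under other settings were all of Dbp, at 0.019 by limma on log2(FPKM + 1), 0.0085 with the muscle score as covariate and 0.020 with the GC offsets. With 1 library left out, log2 fold changes ranged from −0.013 to 0.143 for Clock, −1.18 to 0.152 for Per1, −0.22 to 0.132 for Per3, −0.309 to 0.437 for Dbp, −0.459 to 0.082 for Nr1d1 and −0.034 to 0.896 for Ciart. Those of Arntl (0.102 to 0.316), Npas2 (−0.421 to −0.16), Per2 (0.415 to 1.07) and Nr1d2 (−0.378 to −0.124) kept their sign. The clock index difference moved by less than the SD between libraries in every setting, but took either sign, from −0.157 to 0.2 with 1 library left out. The Arntl and Dbp correlation was −0.318 with the GC trend subtracted and −0.024 without MXL12 and MXL3_4, and 0.373 to 0.684 with 1 library left out. The causes were not tested. Deviations from the group means correlated at 0.258, 0.129 and −0.275 between same-numbered codes. Codes with unlike numbers were not compared, so these values cannot decide whether the numbers pair the libraries. A fit with these numbers as replicate block could use only same-numbered codes: MR1 with MXL1, MR3 with MXL_3, and MR3_4 with MXL3_4. It left out MR4_5, MR5 and MXL12. At an unadjusted p under 0.05 it called 0 clock genes and 256 of 20628 genes (1.24%). Over all genes that count was 326 of 20817 (1.57%) in the test as reported and 460 of 20817 (2.22%) by DESeq2. More genes were tested by limma, with 715 of 34637 (2.06%), and with no filter, with 905 of 34637 (2.61%). With 1 library left out the count was 217 to 734 (1.06% to 3.45%).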
